A study of Homo sapiens with 12 samples.

Results

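The 10 integrin subunit genes ITGA2, ITGA3, ITGA5, ITGA6, ITGAV, ITGB1, ITGB4, ITGB5, ITGB6 and ITGB8 were followed across all 12 arrays of the study. They were taken as a list of subunits of airway epithelium, each represented by the probe set with that single symbol and the highest mean, and all 10 were found among 18417 measured genes. Each had 1 such probe set. ITGA2 was chosen by these measured values, its higher level after both treatments on these same arrays, and its differences from the control are therefore a description without a test.

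The arrays carried RNA of Calu-3, a line of human lung adenocarcinoma cells in long use as a model of airway epithelium. Cells were transfected with a lipid reagent, with NC1, a scrambled control RNA (6 arrays), with a small interfering RNA against SIN3A, the scaffold of a histone deacetylase complex (3 arrays), or with a miR-138 mimic, a synthetic copy of that microRNA (3 arrays). The labels name Calu-3, the extraction notes speak of primary cultures, and neither dose nor time is stated there. The labels call the arrays of a group biological replicates. They do not say whether each had its own culture, so the p-values measure the spread among these arrays, whatever its source.

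Integrins are cell surface receptors made of an alpha and a beta chain. They bind the matrix outside the cell and, through the short tail of the beta chain, the actin or keratin skeleton inside. ITGB1 is the common beta chain: with ITGA2 it forms a collagen receptor, with ITGA3 and ITGA6 laminin receptors and with ITGA5 the fibronectin receptor. ITGA6 also pairs with ITGB4 in the hemidesmosomes that fix epithelium to its basement membrane. ITGAV pairs with ITGB5, ITGB6 or ITGB8, and the pairs with ITGB6 and ITGB8 bind latent TGF-beta and can release the active growth factor.

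The agent of one treatment is a microRNA, which recognises its targets mainly through the seed, bases 2 to 8, shown in capitals. The labels do not say which arm of miR-138 the mimic carried. The RefSeq table (GRCh38.p14) gives the 5p arm at chr3:44114234-44114256 and again at chr16:56858527-56858549, both on the plus strand, with the same sequence.
hsa-miR-138-5p: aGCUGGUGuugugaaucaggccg

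Promoter windows of the 250 bases before the annotated start are shown for ITGA2, the member with the largest difference from the control, and for ITGB6 and ITGB8, the subunits called higher than NC1 1 to 3 with both treatments. They come from the RefSeq table (GRCh38.p14): ITGA2 at chr5:52989102-52989351 on the plus strand, ITGB6 at chr2:160200273-160200522 on the minus strand and ITGB8 at chr7:20330650-20330899 on the plus strand. Capitals mark GGGCGG, the GC box, on either strand.
ITGA2: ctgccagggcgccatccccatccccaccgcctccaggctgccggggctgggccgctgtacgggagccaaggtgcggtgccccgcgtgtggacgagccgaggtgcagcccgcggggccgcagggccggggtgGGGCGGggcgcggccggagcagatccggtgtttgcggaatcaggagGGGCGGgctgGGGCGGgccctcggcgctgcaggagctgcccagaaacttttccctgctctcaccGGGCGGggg
ITGB6: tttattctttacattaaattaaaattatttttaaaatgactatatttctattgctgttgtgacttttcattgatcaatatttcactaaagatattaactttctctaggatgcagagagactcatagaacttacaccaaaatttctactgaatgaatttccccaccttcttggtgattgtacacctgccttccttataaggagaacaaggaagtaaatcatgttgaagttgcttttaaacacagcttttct
ITGB8: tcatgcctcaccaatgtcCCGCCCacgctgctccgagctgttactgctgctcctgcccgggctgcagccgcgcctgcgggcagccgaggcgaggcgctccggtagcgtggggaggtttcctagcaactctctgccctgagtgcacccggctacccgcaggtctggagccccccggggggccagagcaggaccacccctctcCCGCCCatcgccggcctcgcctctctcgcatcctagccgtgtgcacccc

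The windows differ widely in composition. That of ITGA2 holds 76.4% G and C and 4 GC boxes, and 7.63% of all 35116 windows in the table hold as many. The ITGB8 window holds 71.2% G and C and 2 GC boxes. The ITGB6 window holds 30% G and C and no GC box, and 1.52% of windows are lower in G and C. Of the 8 members in the table (ITGA3 and ITGB4 were not matched) 6 had a GC box in at least 1 window. By window, 7 of their 13 (53.8%) held one, beside 42.6% of all windows. The E-box CACGTG (6.34% of all windows) was found for 1 member, ITGA6, and the AP-1 motif TGANTCA (6.57%) for 0, both strands being searched. Such a match describes the letters only.

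Levels are log2 values as deposited, so a difference of 1 means 2-fold. They can be compared between arrays for 1 gene but not directly between genes, so ranks among genes below are a rough guide only. Medians of the arrays ranged from 5.09 to 5.16, and any pair of arrays correlated across genes at 0.967 to 0.995. SIN3A, the targeted gene, lay at 6.36 to 7.34 with NC1, at 5.88 to 6.17 with the siRNA and at 5.93 to 6.25 with the mimic, so both treated groups lay below all controls. NC1 4 to 6 were called higher than NC1 1 to 3 for 6.86% of genes and lower for 3.18% (limma, adjusted p under 0.05), so the figures show both parts of the control. In the text some genes are compared with all NC1 arrays only. The listing of the samples puts NC1 1 to 3 beside the siRNA and NC1 4 to 6 beside the mimic, but the labels name no batch. NC1 3 stood farthest from the other arrays (mean r 0.974) and was the lowest control for 6 of the 10 integrin genes.

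The 13 airway epithelial markers ranged from FOXA2, higher than 62.3% of genes, ELF3 (69.6%) and CLDN4 (70.5%) to KRT19 (99.1%) and EPCAM (99.8%). The 6 basal markers ranged from KRT5 (33.5%) to KRT14 (75.0%). The 5 endothelial markers ranged from TEK (8.37%) to VWF (24.7%). The 8 fibroblast markers ranged from LUM, higher than 0.858% of genes, and DCN (2.28%) to COL1A2 (51.8%) and COL1A1 (74.0%). The 6 leukocyte markers ranged from PTPRC (2.59%) to CD68 (88.3%), a lysosomal gene that other cells also express. Over the arrays of all groups the mean of the fibroblast list lay between 4.40 and 4.67 and that of the leukocyte list between 4.58 and 4.83. The mean of the 13 airway markers was 7.44 to 7.47 on NC1 1 to 3, 7.49 to 7.51 on NC1 4 to 6, 7.40 to 7.45 with the siRNA and 7.34 to 7.40 with the mimic. Among all marker lists for these lineages, the basal one included, CFTR with the siRNA was the only gene called against all NC1 arrays. Against 1 part of NC1 other markers were called too. With the mimic MUC1 (-0.73) and FOXA1 (-0.36) were lower than on NC1 1 to 3. Against NC1 4 to 6 CD68 was higher with the siRNA (0.55) and the mimic (0.49). ELF3 was lower there with the siRNA (-0.38) and CFTR with the mimic (-0.57). The part of these shifts in the integrin values was not tested. In such bulk RNA, fewer cells with a transcript and less of it per cell cannot be told apart.

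**Figure D1:**
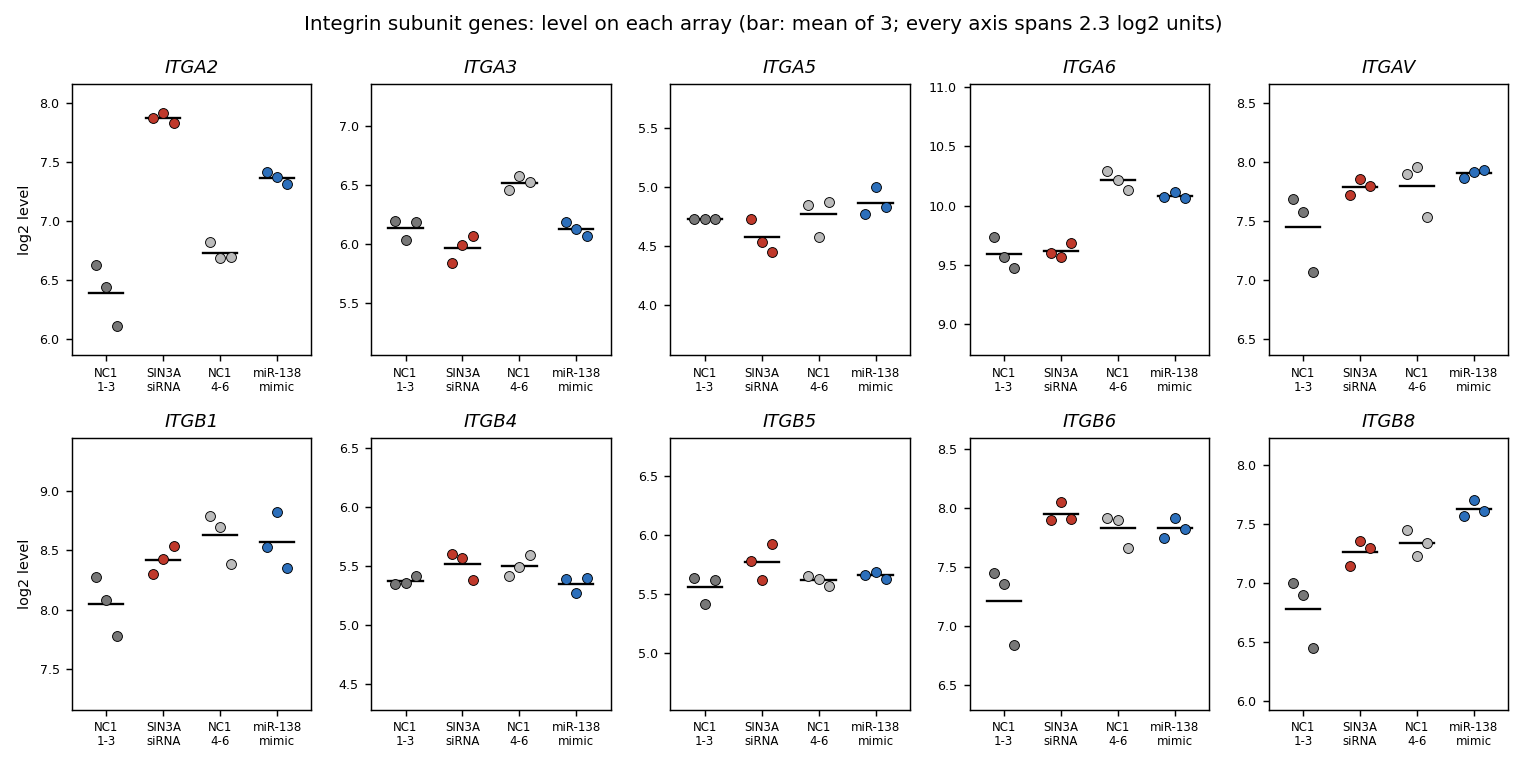
Log2 level of each integrin subunit gene (vertical axis) on each array, in 4 groups of 3 arrays (horizontal axis), with a bar at the group mean. ITGA2 lies above all NC1 arrays with both treatments, whereas for ITGA6, ITGB1, ITGB6 and ITGB8 NC1 4 to 6 lie above NC1 1 to 3.

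ITGA2, the alpha chain of the collagen receptor, was higher after SIN3A siRNA and, to a smaller extent, after the miR-138 mimic. Its level was 6.63, 6.44 and 6.11 on NC1 1 to 3 and 6.82, 6.69 and 6.70 on NC1 4 to 6. It was 7.88, 7.92 and 7.83 with the siRNA and 7.42, 7.37 and 7.32 with the mimic. The order was siRNA, mimic, NC1 4 to 6, NC1 1 to 3, and no group of arrays overlapped the next.

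Against all NC1 arrays (6.57 ± 0.25, SD, n = 6) ITGA2 was 2.48-fold higher with the siRNA (7.88 ± 0.04, SD, n = 3, log2 difference 1.31, SE 0.12). With the mimic it was 1.75-fold higher (7.37 ± 0.05, SD, n = 3, 0.80, SE 0.12). With NC1 1 to 3 as the base the siRNA difference was 1.48 and the mimic difference 0.97. With NC1 4 to 6 as the base they were 1.14 and 0.63. Both comparisons share the control arrays. The lowest siRNA array lay 1.01 above the highest control, and the lowest mimic array 0.50 above it.

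The direct comparison of the treatments uses no control array. ITGA2 was lower with the mimic than with the siRNA by a log2 difference of -0.51 (SE 0.14, 95% interval -0.81 to -0.20), with all 3 mimic arrays below all 3 siRNA arrays. This did not pass the test (limma adjusted p = 0.0899). The exact permutation p was 0.1, the smallest that 3 against 3 arrays can give. The difference was called without NC1 3 (limma adjusted p = 0.0137), which enters only through the shared variance, and after a second quantile normalization (0.0397). With the array set as a block, so that each treatment is read against the part of NC1 listed beside it, the difference was -0.85. That fit brings in the control arrays and the differences by which ITGA2 was chosen, so this value is a description without a test. Over 19 alternatives the adjusted p ranged from 0.00318 to 0.258, and 5 made the call. That block fit is 1 of the 5 and does not count as a test. Since ITGA2 was chosen for its level in both treated groups, the tally is not read as support.

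None of the other 9 integrin genes passed against all NC1 arrays with either treatment, in limma with Benjamini-Hochberg adjustment over all genes. With the siRNA the count was 0 of 9, where 4.01% of all genes were called, and 3 of 9 had an unadjusted p under 0.05 (16.4% of all genes). No gene of the 9 was apart from all controls with the siRNA, as 9.02% of all genes were. With the mimic it was 0 of 9, against 1.04% of all genes, with 1 of 9 at an unadjusted p under 0.05 (11.3% of all genes). The median difference of the 9 was 0.09 with the siRNA and 0.18 with the mimic, beside -0.01 and -0.02 for all genes. The smallest adjusted p was that of ITGA3 with the siRNA (0.105) and of ITGB8 with the mimic (0.143).

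The control arrays themselves differed in integrin level. NC1 4 to 6 were higher than NC1 1 to 3 for all 10 genes in the mean, and 5 of 10 were called higher (limma), where 6.86% of all genes were called higher. All arrays of NC1 4 to 6 lay above all of NC1 1 to 3 for 6 of 10, beside 12.0% of all genes. The called genes were ITGA6 (log2 difference 0.62, SE 0.09), ITGB6 (0.61, SE 0.13), ITGB1 (0.58, SE 0.14), ITGB8 (0.55, SE 0.12) and ITGA3 (0.38, SE 0.09). Their limma adjusted p lay between 0.000267 and 0.0149. ITGA2 was the sixth that did not overlap (0.34, limma adjusted p = 0.0642), and it was called without NC1 1 (0.00930) or among genes with a mean level of at least 6 (0.0260). With the NC1 arrays alone in the fit, ITGA6 was the only one called. ITGA3 was lost without NC1 2 (0.0534) or NC1 5 (0.0637), and ITGB1 without NC1 3 (0.0677), NC1 4 (0.0849) or NC1 5 (0.0704). ITGAV was called without NC1 1 (0.0432) or NC1 6 (0.0424). What separates the parts of the control was not tested.

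**Figure D2:**
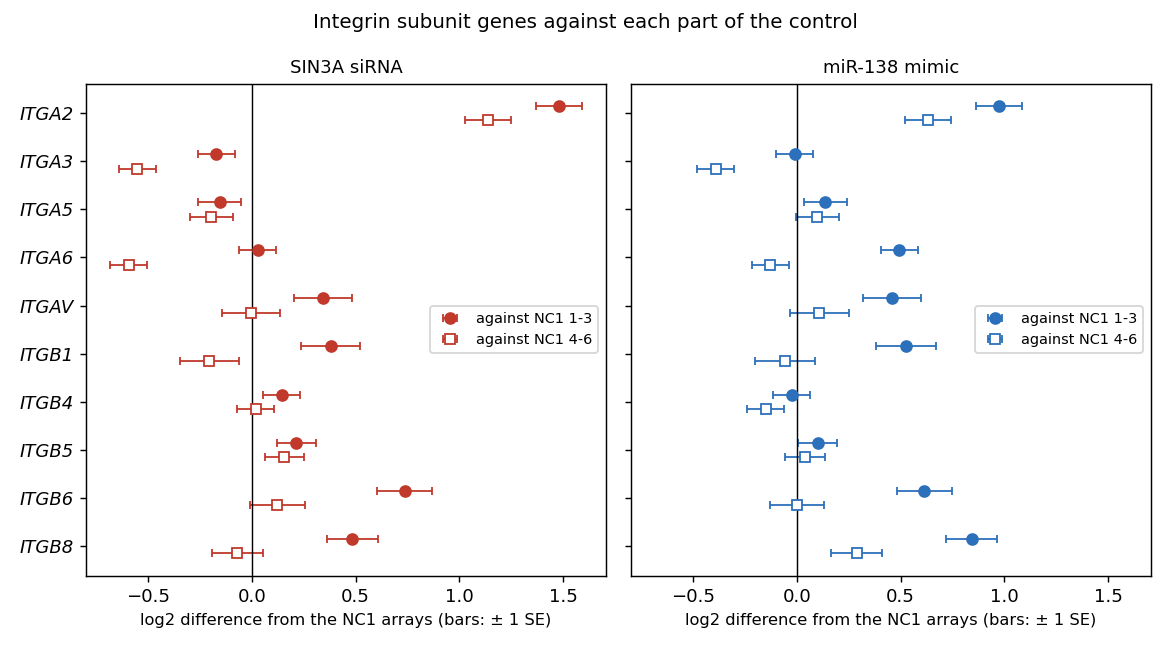
Log2 difference of SIN3A siRNA (left) and miR-138 mimic (right) from NC1 1 to 3 (filled) and NC1 4 to 6 (open) for each gene, with bars of 1 standard error either way. ITGA2 is above 0 against both parts with both treatments, while ITGB1 and ITGA6 change side of 0 with the part used.

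The ITGAV partners that bind latent TGF-beta changed against NC1 1 to 3. ITGB6, found mainly in epithelium, was at 7.45, 7.35 and 6.84 on NC1 1 to 3 and at 7.91, 7.90 and 7.66 on NC1 4 to 6. It was at 7.89, 8.04 and 7.91 with the siRNA and at 7.74, 7.91 and 7.82 with the mimic. NC1 1 to 3 were thus the low group, and the other 3 groups overlapped. Against NC1 1 to 3 ITGB6 rose by 0.74 (SE 0.13, limma adjusted p = 0.00402) with the siRNA and by 0.61 (SE 0.13, limma adjusted p = 0.00776) with the mimic. Against NC1 4 to 6 the differences were 0.12 (95% interval -0.16 to 0.40) and 0.00 (-0.28 to 0.28).

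ITGB8, the other such partner, was at 6.999, 6.90 and 6.45 on NC1 1 to 3 and at 7.44, 7.23 and 7.34 on NC1 4 to 6. It was at 7.15, 7.36 and 7.29 with the siRNA and at 7.56, 7.71 and 7.61 with the mimic. The mimic arrays lay above all 6 controls, the single one of the 9 genes to do so (3.89% of all genes did). Compared with all NC1 arrays ITGB8 was at 0.57 with the mimic (SE 0.17). Its limma adjusted p of 0.143 did not pass, and the exact permutation p was 0.0357. Against NC1 1 to 3 ITGB8 rose by 0.84 with the mimic (SE 0.12, limma adjusted p = 0.000439). With the siRNA it rose by 0.48 (SE 0.12, limma adjusted p = 0.0298), a call lost without NC1 3 (0.32, limma adjusted p = 0.0878), without SIN3A siRNA 2 (0.116) or 3 (0.0948). Over 17 alternatives that adjusted p ranged from 0.0109 to 0.128. Against NC1 4 to 6 it was at 0.29 with the mimic (limma adjusted p = 0.324) and at -0.07 with the siRNA (0.819).

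ITGAV, the alpha chain of these pairs, was at 7.69, 7.58 and 7.07 on NC1 1 to 3 and at 7.90, 7.96 and 7.53 on NC1 4 to 6. With the siRNA it was at 7.72, 7.85 and 7.79, and with the mimic at 7.87, 7.92 and 7.93. The treated arrays lay close together within the range of the controls. Against all NC1 arrays the differences were 0.17 (95% interval -0.14 to 0.48) and 0.28 (-0.03 to 0.60), neither called. The vitronectin receptor chain ITGB5 spanned 5.42 to 5.65 with NC1, 5.61 to 5.92 with the siRNA and 5.62 to 5.68 with the mimic. It was at 0.19 with the siRNA (limma adjusted p = 0.274) and 0.07 with the mimic (0.838).

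Among the laminin receptor chains, ITGA3 and ITGA6 were lower with the siRNA than on NC1 4 to 6. ITGA3 was at 6.19, 6.03 and 6.19 on NC1 1 to 3, at 6.45, 6.57 and 6.53 on NC1 4 to 6, at 5.84, 5.99 and 6.07 with the siRNA and at 6.19, 6.12 and 6.07 with the mimic. Here NC1 4 to 6 were the high group. Against them ITGA3 fell by 0.55 with the siRNA (SE 0.09, limma adjusted p = 0.000645) and by 0.39 with the mimic (SE 0.09, limma adjusted p = 0.0202). The latter call was lost without NC1 5 (limma adjusted p = 0.104), NC1 6 (0.0538), mimic 2 (0.0772) or mimic 3 (0.104). Over 17 alternatives its adjusted p ranged from 0.00667 to 0.104. Against NC1 1 to 3 the differences were -0.17 (95% interval -0.36 to 0.02) and -0.01 (-0.20 to 0.18). Against all NC1 arrays ITGA3 was at -0.36 with the siRNA (limma adjusted p = 0.105), called without NC1 2 (0.0389) and not called in 18 of 19 alternatives (adjusted p 0.0389 to 0.416 over all 19).

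ITGA6, shared by laminin receptors and hemidesmosomes, was at 9.73, 9.57 and 9.47 on NC1 1 to 3 and at 10.29, 10.22 and 10.13 on NC1 4 to 6. With the siRNA it was at 9.60, 9.57 and 9.68, and with the mimic at 10.07, 10.12 and 10.06. The siRNA arrays therefore lay among NC1 1 to 3, and the mimic arrays just below NC1 4 to 6. With the siRNA ITGA6 did not move past the test from NC1 1 to 3 (0.03, limma adjusted p = 0.915), and it fell by 0.60 from NC1 4 to 6 (SE 0.09, limma adjusted p = 0.000327). With the mimic it rose by 0.49 from NC1 1 to 3 (SE 0.09, limma adjusted p = 0.00236), and its difference from NC1 4 to 6 was -0.13 (limma adjusted p = 0.693). Its hemidesmosome partner ITGB4 spanned 5.35 to 5.59 with NC1, 5.38 to 5.60 with the siRNA and 5.27 to 5.40 with the mimic. ITGB4 was not called in any comparison (limma adjusted p from 0.421 to 0.948).

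The common beta chain ITGB1 was at 8.27, 8.08 and 7.78 on NC1 1 to 3 and at 8.80, 8.70 and 8.38 on NC1 4 to 6. With the siRNA it was at 8.30, 8.43 and 8.54, and with the mimic at 8.53, 8.83 and 8.35. Both treated means of ITGB1 lay below the mean of NC1 4 to 6, whereas those of its partner ITGA2 lay above it. ITGA2 was chosen for its rise on these arrays, so that contrast is a description only. The differences of ITGB1 from all NC1 arrays were 0.09 with the siRNA (95% interval -0.30 to 0.48) and 0.24 with the mimic (-0.15 to 0.63). Against NC1 1 to 3 it rose by 0.53 with the mimic (SE 0.14, limma adjusted p = 0.0309). That call was lost without NC1 2, NC1 3, mimic 1 or mimic 2, and the adjusted p over 17 alternatives ranged from 0.0120 to 0.159. The siRNA difference of 0.38 from NC1 1 to 3 was not called (limma adjusted p = 0.150).

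ITGA5, the fibronectin receptor chain, lay below the array medians throughout. It was listed at one value, 4.73, on all of NC1 1 to 3, as 0.185% of genes were, and at 4.84, 4.58 and 4.87 on NC1 4 to 6. With the siRNA it was at 4.73, 4.53 and 4.45 and with the mimic at 4.77, 4.99 and 4.82. The mimic arrays lay above the siRNA arrays, and the difference of 0.29 was not called (SE 0.10, limma adjusted p = 0.194).

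Counted over the 9 genes other than ITGA2, the calls against each part of the control ran in opposite directions. With the siRNA 2 of 9 were higher against NC1 1 to 3 (3.66% of all genes higher) and 2 of 9 lower against NC1 4 to 6 (6.28% lower), and these were different genes: ITGB6 and ITGB8, then ITGA3 and ITGA6. With the mimic 4 of 9 were higher against NC1 1 to 3 (6.01% higher), namely ITGA6, ITGB1, ITGB6 and ITGB8. Against NC1 4 to 6 only ITGA3, 1 of 9, was called, and it was lower (1.89% lower). No gene of the 9 was called in the same direction against both parts with the same treatment. The share of all genes so called is not given, so this count is not read as a trait of the integrins.

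Between the treatments 0 of 10 genes passed in limma, where 1.57% of all genes did, and 3 of 10 had an unadjusted p under 0.05, beside 13.6% of all genes (ITGA2, ITGA5 and ITGA6). The groups did not overlap for 6 of 10 genes, as for 26.4% of all genes. In the arrays as they stand ITGA3, ITGA5, ITGA6, ITGAV and ITGB8 were higher with the mimic and ITGA2 lower. With the array set as a block (NC1 1 to 3 with the siRNA, NC1 4 to 6 with the mimic) the direction turned for ITGA3 (-0.22), ITGA6 (-0.16), ITGAV (-0.24) and ITGB8 (-0.19), and ITGA5 stayed higher (0.25). ITGA6 differed by 0.47 (95% interval 0.07 to 0.86, limma adjusted p = 0.258) and ITGB8 by 0.36 (-0.05 to 0.77, limma adjusted p = 0.447).

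Unnamed loci and noncoding RNA names were left out of the ranking by likeness to ITGA2. Over the 12 arrays the gene most like ITGA2 among the rest was CAPRIN2, which encodes an RNA-binding protein (Pearson r 0.984, Spearman rho 0.916). The next were POLR1F, a subunit of RNA polymerase I (r 0.965), SETD3, a methyltransferase of actin (r 0.943), ATP6V0A1, a proton pump subunit (r 0.942), and DYNLT3, a dynein light chain (r 0.942). CAPRIN2 was 1.10 above NC1 with the siRNA and 0.67 above it with the mimic. Within the integrins, the gene most like ITGA2 was ITGB6 (r 0.770, rho 0.720). The closest pair was ITGAV with ITGB6 (r 0.899, rho 0.657). These correlations are descriptions over 12 arrays that share groups and the step between the parts of the control.

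The ligands and partners of integrins were described from 8 lists with 125 measured genes, of which 5 were called with the siRNA and 3 with the mimic against all NC1 arrays, where 4.01% and 1.04% of all genes were called. The same shares of all genes apply to each list below, and the medians of all genes were -0.01 with the siRNA and -0.02 with the mimic. None of the 15 other integrin genes measured was called with either treatment. Their median was -0.05 with the siRNA and -0.04 with the mimic. The 19 basement membrane genes, among them the laminin chains, held 0 calls with either treatment as well, and so did 5 hemidesmosome genes. Against NC1 1 to 3, 2 of the 19 basement membrane genes were called higher with the siRNA (LAMC1 0.44, LAMA4 0.39, beside 3.66% of all genes). With the mimic 2 were as well (LAMC1 0.54, LAMB1 0.46, beside 6.01%). Against NC1 4 to 6 LAMB1 was called lower with the siRNA (-0.47, beside 6.28%). LAMB3 was called higher there with the mimic (0.47, share of all genes not given). LAMB1 (0.83), LAMC1 (0.59) and LAMA4 (0.42) were called higher on NC1 4 to 6 than on NC1 1 to 3 (6.86% of all genes higher).

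**Figure D3:**
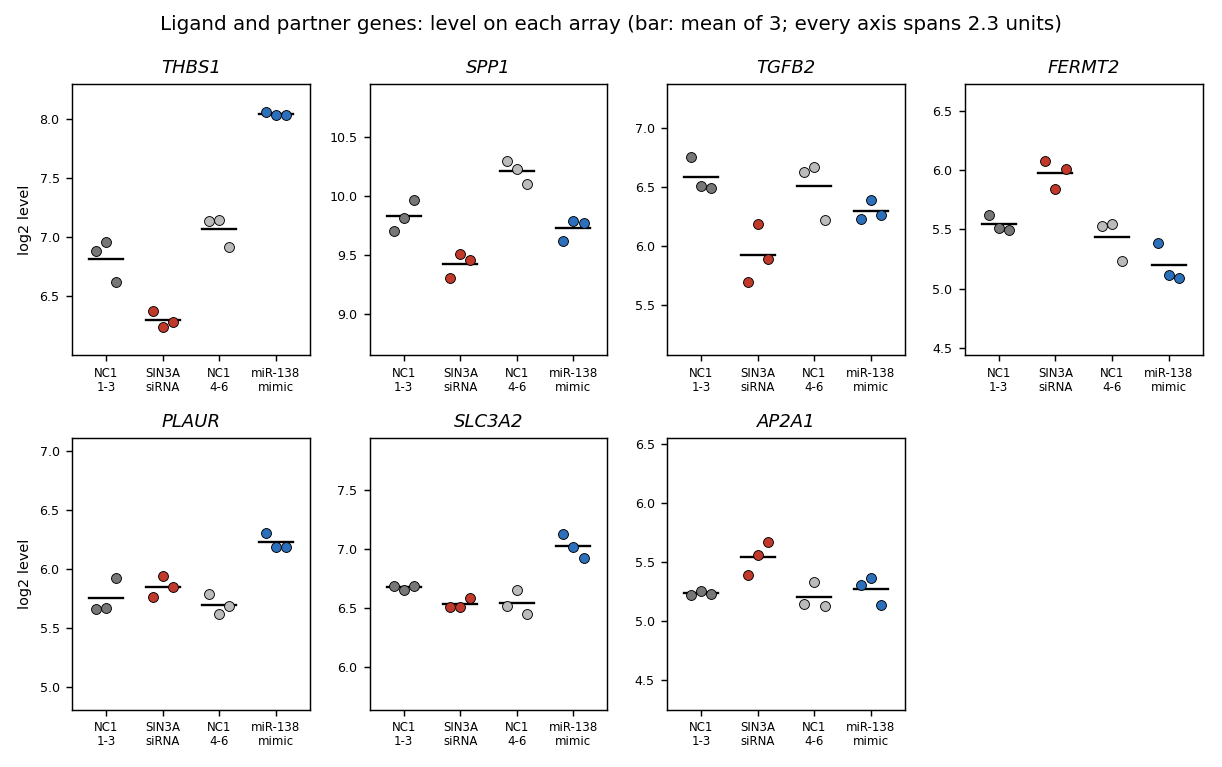
Log2 level (vertical axis) of the 7 ligand and partner genes called against NC1 with either treatment, on each array in 4 groups of 3 arrays (horizontal axis), with a bar at the group mean. THBS1 lies below all controls with the siRNA and above them with the mimic, while PLAUR and SLC3A2 lie above all controls with the mimic alone.

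Of 20 collagen, fibronectin and RGD-type ligand genes, 2 fell with the siRNA (4.01% of all genes called) and 1 rose with the mimic (1.04% called), with list medians of -0.06 and -0.01. THBS1 encodes thrombospondin-1, a matrix glycoprotein that binds integrins and activates latent TGF-beta. It was at 6.88, 6.96 and 6.62 on NC1 1 to 3, at 7.14, 7.15 and 6.92 on NC1 4 to 6, at 6.37, 6.24 and 6.29 with the siRNA and at 8.06, 8.03 and 8.03 with the mimic. The treatments thus lay on opposite sides of all controls, and they differed by 1.74 (SE 0.12, limma adjusted p = 7.12e-06). With NC1 1 to 3 as the base the differences were -0.52 and 1.22, and with NC1 4 to 6 they were -0.77 and 0.97, each of these called. SPP1, which encodes osteopontin, fell by 0.60 with the siRNA (SE 0.12, limma adjusted p = 0.0136). That call was lost without any 1 of the siRNA arrays (limma adjusted p = 0.0791, 0.0535 and 0.0632). SPP1 was at -0.29 with the mimic (limma adjusted p = 0.347). This depended on the part of the control. With the mimic it was at -0.10 against NC1 1 to 3 (limma adjusted p = 0.599) and fell by 0.49 from NC1 4 to 6 (0.00829). With the siRNA SPP1 was called lower against both parts (-0.40 and -0.79). NC1 4 to 6 were called higher than NC1 1 to 3 for SPP1 (0.38, limma adjusted p = 0.0186).

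In the list of 8 latent TGF-beta genes, 1 fell with the siRNA (4.01% of all genes called) and 0 passed with the mimic (1.04% called), with list medians of -0.08 and -0.03. This was TGFB2, one of the TGF-beta ligands, at 6.75, 6.504 and 6.49 on NC1 1 to 3, at 6.62, 6.67 and 6.22 on NC1 4 to 6 and at 5.69, 6.18 and 5.89 with the siRNA. All siRNA arrays lay below all controls (-0.62, SE 0.12, limma adjusted p = 0.0111). The call was lost without SIN3A siRNA 1 (0.0712) or 3 (0.0644). With the mimic TGFB2 was at 6.23, 6.39 and 6.26 (-0.25, limma adjusted p = 0.453).

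Among 29 genes of the cytoplasmic adhesion machinery, 1 rose with the siRNA, a share near the 4.01% of all genes called, and 0 passed with the mimic (1.04% called). It was FERMT2, which encodes kindlin-2, a protein that binds the beta chain tail and helps to activate the receptor. It was at 5.62, 5.52 and 5.50 on NC1 1 to 3, at 5.53, 5.55 and 5.23 on NC1 4 to 6, at 6.08, 5.84 and 6.01 with the siRNA and at 5.38, 5.12 and 5.09 with the mimic. The siRNA arrays lay above all others (0.48, SE 0.10, limma adjusted p = 0.0138). The call was lost without SIN3A siRNA 1 (0.0794) or 3 (0.0784). FERMT2 was lower with the mimic than with the siRNA by -0.78 (SE 0.11, limma adjusted p = 0.00479).

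Of 11 membrane partners, 2 rose with the mimic (1.04% of all genes called) and 0 passed with the siRNA (4.01% called). PLAUR, the urokinase receptor, rose by 0.50 with the mimic (SE 0.08, limma adjusted p = 0.00910, or 0.0834 without mimic 1). SLC3A2, the CD98 heavy chain that binds beta chain tails, rose by 0.42 (SE 0.08, limma adjusted p = 0.0210). The call of SLC3A2 was lost without mimic 1 (0.165), 2 (0.114) or 3 (0.0521) and after a second quantile normalization (0.0761). With the siRNA these genes were at 0.12 and -0.08. Of 18 genes of integrin uptake and recycling 1 rose with the siRNA (4.01% of all genes called): AP2A1, a subunit of the clathrin adaptor, was at 0.32 (SE 0.08, limma adjusted p = 0.0462). That call was lost in 13 of its 18 alternatives, among them 10 that left out 1 array, with adjusted p up to 0.253. With the siRNA AP2A1 was at 0.30 against NC1 1 to 3 (limma adjusted p = 0.0853) and at 0.34 against NC1 4 to 6 (0.0339). RAB4A, a GTPase of rapid recycling, was lower with the mimic than with the siRNA (-0.54, limma adjusted p = 0.0169). The laminin chains named above and RAB4A were named after their values were seen.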

How the data were processed

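RNA of 12 cell line samples was measured on 1-colour arrays. The authors deposited log2 levels, 1 per probe set and array. RMA and Partek 6.3 are named, with no role or order, per the submitters' processing notes. The values lay between 1.43 and 13.2 and were used as deposited. Scanner files were not used here, and precision rests on how many arrays each group has. Of 33297 probe sets 19460 had 1 symbol, 1754 several and 12083 none, which gave 18417 genes.

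One linear model per gene took all 12 arrays, with a mean for each of 3 groups, or of 4 with NC1 in parts, in limma 3.58.1 under R 4.3.3 (9 and 8 residual degrees of freedom), with Benjamini-Hochberg adjustment over all genes and a threshold of 0.05. The fit with NC1 in parts equals one with the array set as a block. Exact permutation tests were two-sided. The fits were tested on simulated data with independent noise and no step between the parts of NC1. That test therefore does not cover the step seen here. Members, lists, alternatives and the parts of NC1 were chosen with earlier results of these data known. From each list up to 4 genes with the smallest adjusted p among those called against NC1 were named, with the 5 genes most like ITGA2. These 5 were taken after leaving out unnamed loci and noncoding RNA names.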

Additional observations from a re-analysis of the deposited data

Results flagged for a closer look

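For ITGB5, NC1 2 (5.42) lay apart from the other NC1 arrays, of which the nearest was at 5.57. This gap was 0.649 of the range of the 6 arrays, where 0.625 is the limit. By chance about 1 group in 20 would pass it, and 10 genes were looked at.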

How the results depend on the processing

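Same-numbered arrays did not deviate together (correlations of -0.10 to 0.03, and 2 of 6, 2 of 6 and 5 of 6 arrays closest to their own number), so replicate numbers were not taken as pairs. The numbers 4 to 6 occur only in NC1, so with a replicate block each treatment was compared with NC1 1 to 3 alone. In that fit 1 integrin gene was called with the siRNA, 4 with the mimic and 2 between the treatments (0 each without it). Companion genes numbered 8 with the siRNA and 12 with the mimic (5 and 3 without it), and ITGA6 turned to 0.027 with the siRNA. With the array set as a block (NC1 1 to 3 with the siRNA, NC1 4 to 6 with the mimic) the integrin counts were 2, 1 and 1 and the companion counts with the siRNA and the mimic 11 and 7. The last integrin call was ITGA2 between the treatments, in a fit built from the differences it was chosen by. ITGA6 then turned to 0.027 with the siRNA, ITGA6 and ITGB1 to -0.13 and -0.057 with the mimic, and between the treatments ITGA3, ITGA6, ITGAV, ITGB1 and ITGB8 to -0.22, -0.16, -0.24, -0.44 and -0.19. The NC1 parts could not be fitted with a block. With only the arrays of the 2 groups compared, integrin counts were 3 between the treatments, 1 between the NC1 parts and 1 for the siRNA against NC1 1 to 3, and companion genes between the treatments 8 (4 in all arrays). A second quantile normalization gave 1 integrin call between the treatments and turned ITGA6 to -0.018 (siRNA against NC1 1 to 3), ITGAV to 0.019 (siRNA against NC1 4 to 6) and ITGB6 to -0.007 (mimic against NC1 4 to 6). In the replicate block, the fit of the 2 groups alone and the second quantile normalization, ITGA2, chosen by its values, was among the integrin calls between the treatments. A minimum mean level of 6 left out ITGA5, ITGB4 and ITGB5. The share of all genes called is not given for the alternatives here or below. A general rise or fall in calls therefore cannot be told from one in these genes.

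Leaving out 1 array at a time, integrin calls ranged from 0 to 1 with the siRNA, 0 to 0 with the mimic, 0 to 1 between the treatments, 3 to 7 between the NC1 parts, 1 to 2 (siRNA) and 3 to 5 (mimic) against NC1 1 to 3, and 2 to 2 and 0 to 1 against NC1 4 to 6. Companion calls ranged from 1 to 5, 1 to 3 and 2 to 5 in the first 3 comparisons. Signs turned only in differences that were not called: ITGB1 with the siRNA (-0.024 to 0.179), between the NC1 parts ITGA5 (-0.014 to 0.133) and ITGB5 (-0.010 to 0.099), for the siRNA ITGA6 against NC1 1 to 3 (-0.033 to 0.097), ITGAV (-0.137 to 0.075) and ITGB4 (-0.025 to 0.086) against NC1 4 to 6, for the mimic ITGA3 (-0.063 to 0.020) and ITGB4 (-0.047 to 0.017) against NC1 1 to 3, and ITGAV (-0.023 to 0.189), ITGB1 (-0.185 to 0.051) and ITGB6 (-0.081 to 0.045) against NC1 4 to 6. ITGA2, described without a test, lay 1.22 to 1.362 above the NC1 arrays with the siRNA and 0.714 to 0.856 with the mimic. The block fits, which use a part of NC1 as the base, gave 1.481 with the siRNA and 0.634 or 0.975 with the mimic. Beyond the part of NC1 that the block fits use, the cause of these changes was not tested. The alternatives for comparisons with a part of the control, other than the fit of the 2 groups alone, and for the companion counts were chosen after seeing the data.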
